A study of Mus musculus with 21 samples.

Results

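The genes described here are 10 amino acid transporters of the solute carrier (SLC) families, Slc38a1, Slc38a2, Slc7a1, Slc7a5, Slc7a6, Slc7a11, Slc3a2, Slc1a4, Slc1a5 and Slc43a1, out of 19304 protein-coding mouse genes of at least 2 kb. They were chosen by name, as carriers that bring neutral, cationic or sulphur amino acids through the plasma membrane, and all 10 had a value in every library. For each gene the measurement was cover, the percent of the gene body (from the first to the last base of its RefSeq record on GRCm38.p6) that lay inside called peaks of H3K36me3, a histone mark. Cover says how far called peaks reach along a gene, not how much of the mark or of the transcript is present.

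The libraries came from C2C12, a mouse myoblast line that fuses into muscle fibres in culture, by chromatin immunoprecipitation and sequencing. Wild-type (WT) cells were sampled at day 0, and at days 1 and 5 either in control medium or under methionine restriction, with 2 libraries in each of these 5 groups. For both Setd2 knockout (KO) lines there was 1 library for each of the same combinations of day and medium. All libraries carried added Drosophila chromatin, and how the knockouts were made, or whether each line is 1 clone, is not given in the sources used here. Nothing says that the 2 WT libraries of a group came from separate cultures, so p-values measure only the spread between these libraries, which may be technical.

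H3K36me3 is laid down behind elongating RNA polymerase by the methyltransferase SETD2, which takes the methyl group from S-adenosylmethionine, a product of methionine. The mark therefore lies over transcribed gene bodies and usually grows towards the 3′ end. Amino acid transporters are a known target of the response to amino acid shortage, in which the kinase GCN2 (gene Eif2ak4) raises translation of the transcription factor ATF4, and ATF4 binds C/EBP-ATF response elements in genes such as Slc7a11. Among the routes by which methionine itself enters cells are the system L carrier made of Slc7a5 and Slc3a2 and the sodium-coupled carrier Slc38a2.

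The promoters of 3 members are printed because they differ in this element and in cover. Promoter windows of 300 bases, 250 before and 50 from the start site, were found for 7 of the 10 members in the RefSeq table for GRCm38.p6. The C/EBP-ATF response element was searched as TGATGNAA on both strands and occurs in 3.97% of all 32851 windows and in those of 2 of the 7 members, Slc7a11 and Slc1a4. The core of the antioxidant response element, searched as TGACNNNGC on both strands, occurs in 12.4% of all windows and in those of 4 of the 7 members, Slc38a2, Slc7a1, Slc7a6 and Slc43a1. The windows below run 5′ to 3′ on the gene's strand, the minus strand in each case, and capitals mark the matches: 2 of the C/EBP-ATF element in Slc7a11 (chr3:50443564-50443863, first bases 66 and 47 bases before the start), 1 in Slc1a4 (chr11:20332664-20332963, 4 bases before) and 1 antioxidant core in Slc38a2 (chr15:96699679-96699978, 27 bases before). A match of letters is a description of the window and not a shown binding site. A window without a match does not say that the gene lacks the element elsewhere.

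Slc7a11: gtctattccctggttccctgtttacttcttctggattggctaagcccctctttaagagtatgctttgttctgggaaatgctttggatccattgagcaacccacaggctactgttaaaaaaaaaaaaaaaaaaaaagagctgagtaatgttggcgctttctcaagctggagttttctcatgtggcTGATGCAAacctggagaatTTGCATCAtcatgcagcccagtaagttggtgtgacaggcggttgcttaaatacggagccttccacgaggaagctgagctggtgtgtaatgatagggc

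Slc1a4: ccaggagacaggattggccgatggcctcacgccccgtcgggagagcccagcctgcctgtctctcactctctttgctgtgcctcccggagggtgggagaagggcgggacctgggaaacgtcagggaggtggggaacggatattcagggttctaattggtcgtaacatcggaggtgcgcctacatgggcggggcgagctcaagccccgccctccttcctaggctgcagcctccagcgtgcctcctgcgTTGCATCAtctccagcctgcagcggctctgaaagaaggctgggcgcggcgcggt

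Slc38a2: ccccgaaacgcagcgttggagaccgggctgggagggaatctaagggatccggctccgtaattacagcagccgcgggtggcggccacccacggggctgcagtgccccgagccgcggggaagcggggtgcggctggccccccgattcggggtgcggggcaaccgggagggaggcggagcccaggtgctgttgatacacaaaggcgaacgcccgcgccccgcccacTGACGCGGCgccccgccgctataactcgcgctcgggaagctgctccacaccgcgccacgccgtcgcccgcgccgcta

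No H3K36me3 was called over the first of these genes in WT cells, and the second was covered over part of its body. The third had the highest median cover of the 10 members in WT. Several facts of the libraries bear on all values below. The WT lists held 63423 to 87398 peaks over 110 to 183 Mb, with 110 to 134 Mb in the 4 restricted libraries and 140 to 183 Mb in the 6 others. KO line 1 had 13.9 to 74.1 Mb in 4 libraries and 791 peaks over 0.307 Mb in the restricted day 1 library. KO line 2 had 1.88 to 7.13 Mb in 4 libraries and 127 peaks over 0.00821 Mb in the restricted day 1 library. Read depth is unknown, so a short list and little mark cannot be told apart. Of 8 muscle genes listed as markers, 3 had cover in WT cells at day 0. In control medium 8 had cover after 1 day and 7 after 5 days, and under restriction 2 and 5. Their summed cover was 151 points in both libraries at day 0, 316 to 340 at day 1, 596 to 602 at day 5, and 34.5 to 59.8 and 140 to 162 under restriction. This list moves with the groups, and its part in the results was not tested. The 10 measured markers of other cell types were at 0 in all WT libraries and at most at 1.30% in a KO library. The Setd2 body itself had 45.6 to 82.8% cover in WT, 0 to 24.0% in KO line 1 and 0 in KO line 2; this is peak cover and does not check the deletion.

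In WT cells the 10 transporters spread over the whole range of cover. Slc38a2, the sodium-coupled carrier SNAT2 for small neutral amino acids, lies at chr15:96687392-96699728 (12.3 kb). Its day 0 cover was 93.0% and 93.1%, and in control medium it was 92.8% and 92.5% at day 1 and 92.5% and 92.4% at day 5. These 6 control libraries lay within 1 point of each other, a tighter spread than in any other marked member. In each of them a single peak filled all but the first part of the body. Cover was thus near its ceiling and did not follow peak strength. The authors' fold of that peak was 8.03 and 8.36 at day 0, 5.92 and 6.18 at day 1, and 6.14 and 5.97 at day 5. Folds were not tested between lists. The lowest, median and highest cover of Slc38a2 over the 10 WT libraries was 59.7%, 92.4% and 93.1%.

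Slc7a1, which encodes the cationic carrier CAT1 for arginine and lysine, followed with a median of 57.4% (21.8% to 82.8%) over 72.5 kb at chr5:148327410-148399904. Slc7a5, the light chain LAT1 of the system L carrier, had a median of 54.7% (29.1% to 69.2%) over 26.5 kb at chr8:121881146-121907686. Slc1a5, the glutamine carrier ASCT2, had 45.2% (13.8% to 78.9%) over 16.9 kb at chr7:16781334-16798274. The ranges of these 3 genes overlap widely, so their order is not set by these libraries.

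Slc38a1, which encodes SNAT1 and is the neighbour of Slc38a2 at 44.0 kb, had a median of 40.6% (34.6% to 60.1%) over 72.0 kb at chr15:96571418-96643438. Slc1a4, the alanine, serine and cysteine carrier ASCT1, had 39.1% (11.1% to 53.7%) over 30.5 kb at chr11:20302180-20332713. Slc7a6, the light chain y+LAT2 that exchanges cationic for neutral amino acids, had 36.9% (28.0% to 62.1%) over 30.5 kb at chr8:106168219-106198714. The medians of these 3 genes lie closer together than the spread of any of them.

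Slc3a2, the CD98 heavy chain that carries Slc7a5, Slc7a6 and Slc7a11 to the membrane, had a median of 35.8% (22.0% to 43.0%) over the 16.5 kb of its record at chr19:8706882-8723369. Its RefSeq transcript start leaves only 7.02 kb of that record, and over those its median was 84.1% (51.8% to 90.4%). Counted from the transcript start, Slc3a2 stands next to Slc38a2 in the order of medians. For Slc7a11 (chr3:50364936-50499087, 134 kb), the cystine and glutamate exchanger xCT, the transcript start keeps 58.6% of the record, and its cover was 0 in all 10 WT libraries by either measure. Slc43a1, the system L carrier LAT3 (chr2:84838855-84863586, 24.7 kb), was at 0 in 8 of 10 WT libraries, at 3.38% in replicate 2 of day 0 and at 1.95% in replicate 1 of restricted day 1. A zero here says that no peak was called over the gene, not that the mark is absent.

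**Figure D1:**
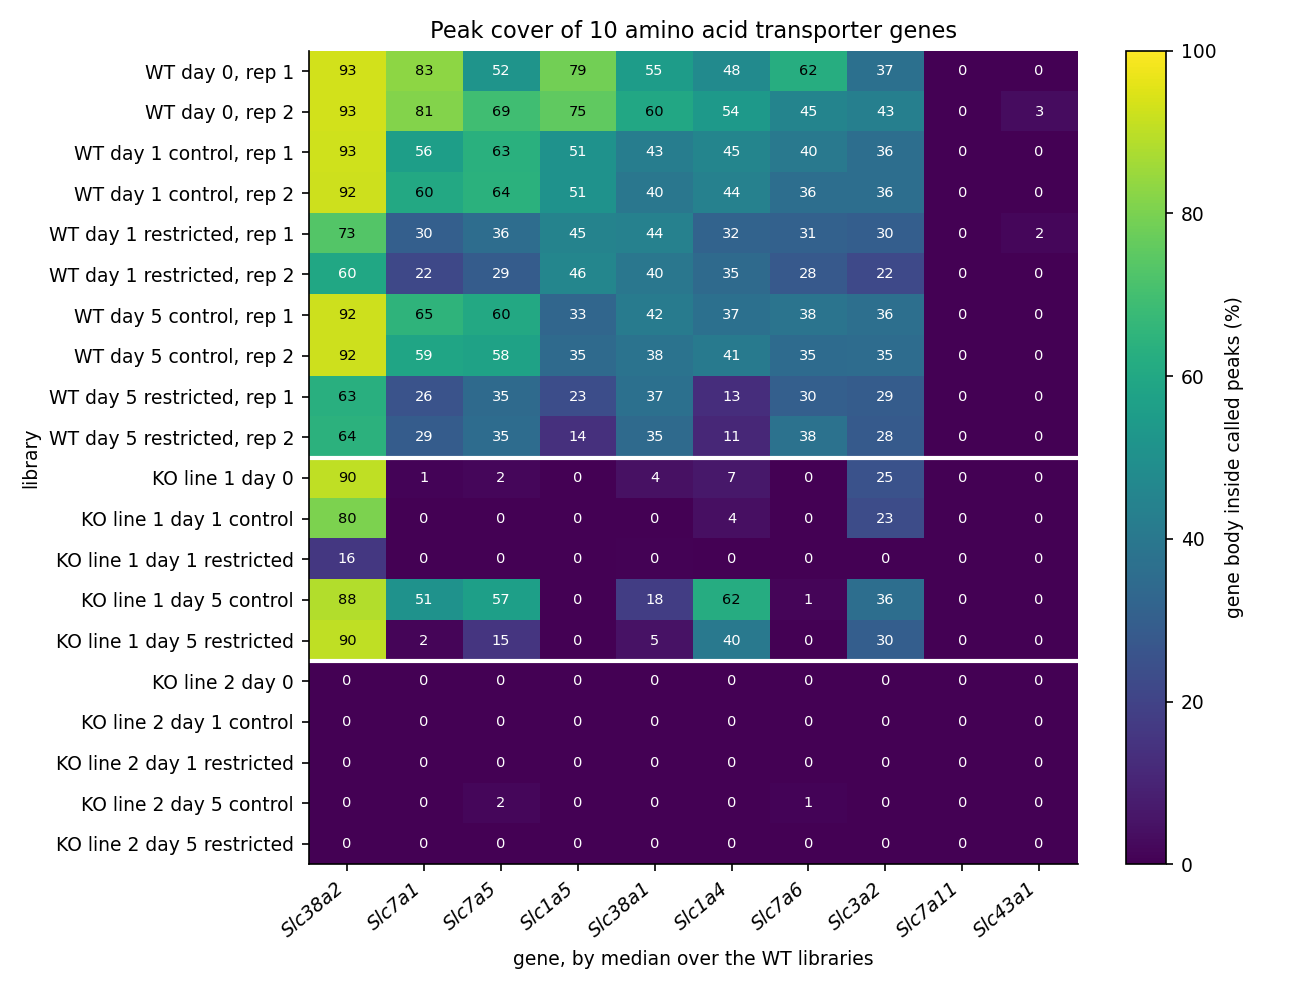
Cover of the 10 transporter genes (columns, ordered by their median over WT libraries) in the 20 libraries (rows), as percent of the gene body inside H3K36me3 peaks, printed in each cell. In KO line 1 the Slc38a2 column is at 80% or more in 4 of 5 libraries and at 16% in the restricted day 1 library, while KO line 2 is at or near 0 in every column.

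Counting as marked a gene with at least 50% cover in both libraries of a WT group, 5 members were marked at day 0 (24.7% of all genes): Slc38a2, Slc7a1, Slc7a5, Slc1a5 and Slc38a1. Without Slc38a1 there were 4 in control medium after 1 day (20.9%), and without Slc1a5 as well there were 3 at day 5 (24.3%). Under restriction Slc38a2 was the 1 member marked by the whole record at day 1 (12.1%) and at day 5 (15.9%). In the single libraries of KO line 1 it was again the 1 marked member at day 0 (1.06%), day 1 control (0.818%) and day 5 restricted (3.32%). At day 1 under restriction the line had none (0.00%), and its day 5 control library had 4 (8.40%), namely Slc38a2, Slc7a1, Slc7a5 and Slc1a4.

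The change over days in control medium asks which transporters gained or lost cover as the cells differentiated. By limma's moderated test over the 9514 genes whose WT cover averaged 5% or more, in which 8 of the 10 members were tested and Slc7a11 and Slc43a1 were not, Slc1a5, Slc7a1 and Slc38a1 had less cover at day 5 than at day 0, and no member had more. The same test called 27.8% of all genes tested, 15.6% for less cover and 12.2% for more. The median difference of the 8 members was -14.4 points, beside -1.17 points over all genes tested. These 3 genes kept their direction under every scaling tried.

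Slc1a5 had 78.9% and 75.4% at day 0, 51.0% and 51.1% at day 1, and 32.8% and 34.5% at day 5. Each day's libraries lay below all those of the day before it. The difference from day 0 was -26.1 points at day 1 (SE 4.20, limma adjusted p = 0.0117) and -43.4 points at day 5 (SE 4.20, limma adjusted p = 0.000106). Slc7a1 had 82.8% and 81.3% at day 0, 56.0% and 60.3% at day 1, and 64.9% and 58.8% at day 5, so its day 1 and day 5 libraries overlapped with each other and not with day 0. Its difference from day 0 was -20.2 points at day 5 (SE 4.41, limma adjusted p = 0.00948). Slc38a1 had 55.3% and 60.1% at day 0, 42.6% and 39.7% at day 1, and 41.6% and 37.9% at day 5, with a difference of -17.9 points at day 5 (SE 3.86, limma adjusted p = 0.00895). Without replicate 2 of day 5 control, limma's adjusted p was 0.0673 for Slc7a1 and 0.0573 for Slc38a1, and only Slc1a5 stayed past the threshold. When only the groups compared were fitted, Slc38a1 lost its call as well (limma adjusted p = 0.0645).

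Slc7a6 had 62.1% and 45.3% at day 0 and 38.3% and 34.8% at day 5, a difference of -17.1 points whose test missed the threshold (SE 5.74, limma adjusted p = 0.0579). Leaving out replicate 2 of day 0, the lower of that pair, gave a limma adjusted p of 0.00730. Slc1a4 differed by -11.6 points (SE 3.77, limma adjusted p = 0.0516), and without replicate 1 of day 0 its limma adjusted p was 0.0365. Slc7a5, Slc3a2 and Slc38a2 differed by -1.70, -3.99 and -0.60 points and were not called.

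Between day 0 and day 1 the test called the same 3 genes, Slc1a5, Slc7a1 (-23.9 points, SE 4.41, limma adjusted p = 0.0192) and Slc38a1 (-16.6 points, SE 3.86, limma adjusted p = 0.0414), beside 6.63% of all genes, 5.67% for less cover and 0.967% for more. These calls were fragile. None of the 3 passed without either day 1 control library or when only the groups compared were fitted, and 1 passed without replicate 1 of day 0. Directions did not turn in any of these fits.

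**Figure D2:**
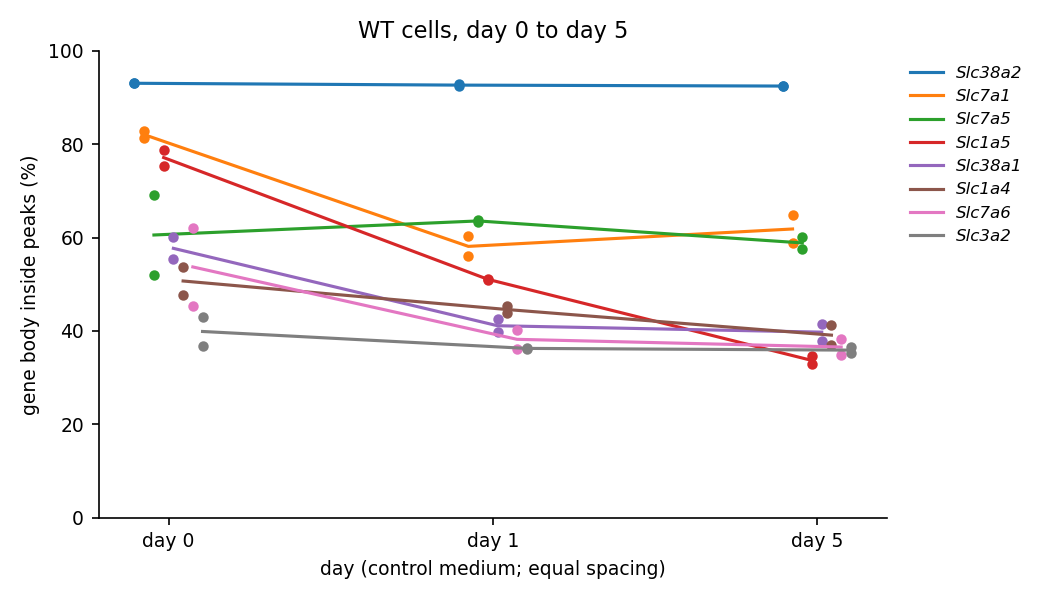
Cover (percent of the gene body inside peaks) of the 8 covered transporters in WT cells in control medium at days 0, 1 and 5, with 1 point per library and lines through the means of 2. Slc38a2 stays near 93%, where 1 peak fills nearly all of its body, while Slc1a5 goes from 77.1% to 33.7%.

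Methionine restriction was compared with control medium on the same day. At day 1, Slc7a1, Slc7a5, Slc38a2 and Slc1a4 fell by limma's test, 4 of the 8 members tested, beside 38.3% of all genes in either direction and 36.0% for less cover. The first 3 kept their direction under every scaling tried, while Slc1a4 turned to 3.70 points when each library was centred on its own median over the genes tested. No member was called for more cover, which held for 2.38% of all genes. The median difference of the members was -10.9 points and that of all genes tested was -7.99 points. Centring moved every difference up by 15.2 points at day 1 and by 16.7 points at day 5. After it Slc7a5 missed the threshold (-15.9 points, limma adjusted p = 0.0540), and with lists of the same covered length, made by dropping the weakest peaks of the longer lists, Slc7a1 did (-13 points, limma adjusted p = 0.192).

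For Slc7a1 the control libraries had 56.0% and 60.3% and the restricted ones 30.2% and 21.8%, with a gap between the groups several times the spread within them (-32.1 points, SE 4.41, limma adjusted p = 0.000807). Slc7a5 had 63.3% and 63.8% in control medium and 35.9% and 29.1% under restriction (-31.1 points, SE 5.68, limma adjusted p = 0.00338). Slc38a2 had 92.8% and 92.5% against 73.4% and 59.7% (-26.1 points, SE 3.89, limma adjusted p = 0.00126). The 2 restricted libraries of Slc38a2 differed more from each other than the 6 WT libraries of day 0 and control medium did. Slc1a4 had 45.3% and 43.9% against 31.7% and 34.5% (-11.5 points, SE 3.77, limma adjusted p = 0.0419), and in 8 of the 10 fits that left out a library, controls and day 5 libraries included, its limma adjusted p lay between 0.0501 and 0.154.

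Slc3a2 had 36.2% and 36.3% in control medium at day 1 and 29.9% and 22.0% under restriction, a difference of -10.3 points that missed the threshold (SE 3.95, limma adjusted p = 0.0702). Over the body from its transcript start the means were 85.2% ± 0.14 and 61.0% ± 13 (SD, n = 2), and with that body, an alternative chosen after seeing the data, the difference was -24.3 points with a limma adjusted p of 0.00708. Slc7a6 and Slc1a5 differed by -8.80 and -5.85 points and were not called. Slc38a1 was level, with 42.6% and 39.7% in control medium and 43.8% and 39.6% under restriction. Relative to the median of its library Slc38a1 was 15.8 points higher under restriction, with a limma adjusted p of 0.0127. Centring added the same 15.2 points to every gene, and after it 50.1% of all genes were called in either direction.

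At day 5, Slc7a1, Slc38a2, Slc1a4, Slc7a5 and Slc1a5 fell by limma's test, 5 of the 8 members tested, beside 45.8% of all genes in either direction, 41.5% for less cover and 4.32% for more. Slc1a5 turned to 1.60 points after centring, and Slc1a4 turned to 2.48 points with lists of the same covered length, while the other 3 kept their direction. With lists of the same length, 1 of the 5 genes, Slc38a2, was still called, and Slc7a1 was at -3.74 points (limma adjusted p = 0.708), Slc7a5 at -15.5 points (limma adjusted p = 0.0656) and Slc1a5 at -6.38 points (limma adjusted p = 0.470). Centring also ended the calls of Slc7a5 (-7.21 points, limma adjusted p = 0.335) and Slc1a4 (-10.3 points, limma adjusted p = 0.111). The median difference of the members was -19.5 points, beside -9.16 points over all genes tested.

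Slc7a1 had 64.9% and 58.8% in control medium and 25.6% and 29.3% under restriction (-34.4 points, SE 4.41, limma adjusted p = 0.000424). Slc38a2 had 92.5% and 92.4% against 63.2% and 64.2% (-28.8 points, SE 3.89, limma adjusted p = 0.000584). Slc1a4 had 37.0% and 41.3% against 13.2% and 11.1% (-27.0 points, SE 3.77, limma adjusted p = 0.000662). In all 3 genes every restricted library was far below every control library, and the restricted libraries of Slc1a4 held the lowest values among the 8 members with cover throughout WT.

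Slc7a5 had 60.2% and 57.5% against 34.6% and 35.3% (-23.9 points, SE 5.68, limma adjusted p = 0.00945). Slc1a5 had 32.8% and 34.5% against 23.5% and 13.8% (-15.1 points, SE 4.20, limma adjusted p = 0.0186). Both calls also rested on single libraries. For Slc1a5 limma's adjusted p was 0.0655 and 0.0773 without replicate 1 or 2 of day 5 control and 0.144 without replicate 2 of restricted day 5. For Slc7a5 it was 0.0617 without replicate 1 of day 5 control and 0.0513 without replicate 1 of restricted day 5. Without replicate 1 of day 5 control 3 members were called in place of 5.

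Slc3a2 had 36.5% and 35.3% in control medium at day 5 and 29.0% and 28.1% under restriction, -7.33 points by the whole record (limma adjusted p = 0.164) and -17.2 points from the transcript start (limma adjusted p = 0.0264). Slc38a1 and Slc7a6 differed by -4.07 and -2.61 points and were not called. Relative to the median of their library both turned and passed the test, Slc38a1 at 12.6 points (limma adjusted p = 0.0296) and Slc7a6 at 14.06 points (limma adjusted p = 0.0374). Centring added the same 16.7 points to every gene, and after it 54.2% of all genes were called in either direction. In each of the 2 restriction comparisons and of the 2 comparisons over days, 7 of the 8 members had both libraries below both of the reference group, beside 59.6% and 65.4% of all genes for restriction at day 1 and day 5, and 49.3% and 36.1% from day 0 to day 1 and to day 5.

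Whether the effect of restriction differed between the days was tested as an interaction. No member passed limma's threshold of 0.05, beside 5.20% of all genes, and 1 of the 8 had an unadjusted p under 0.05, beside 20.3% of all genes. That member was Slc1a4, whose effect was more negative at day 5 (-15.5 points, SE 5.33, limma adjusted p = 0.146). The other 7 interaction terms ranged from -9.22 to 7.20 points with SEs of 5.46 to 8.12 points, so differences of that size could not be resolved.

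**Figure D3:**
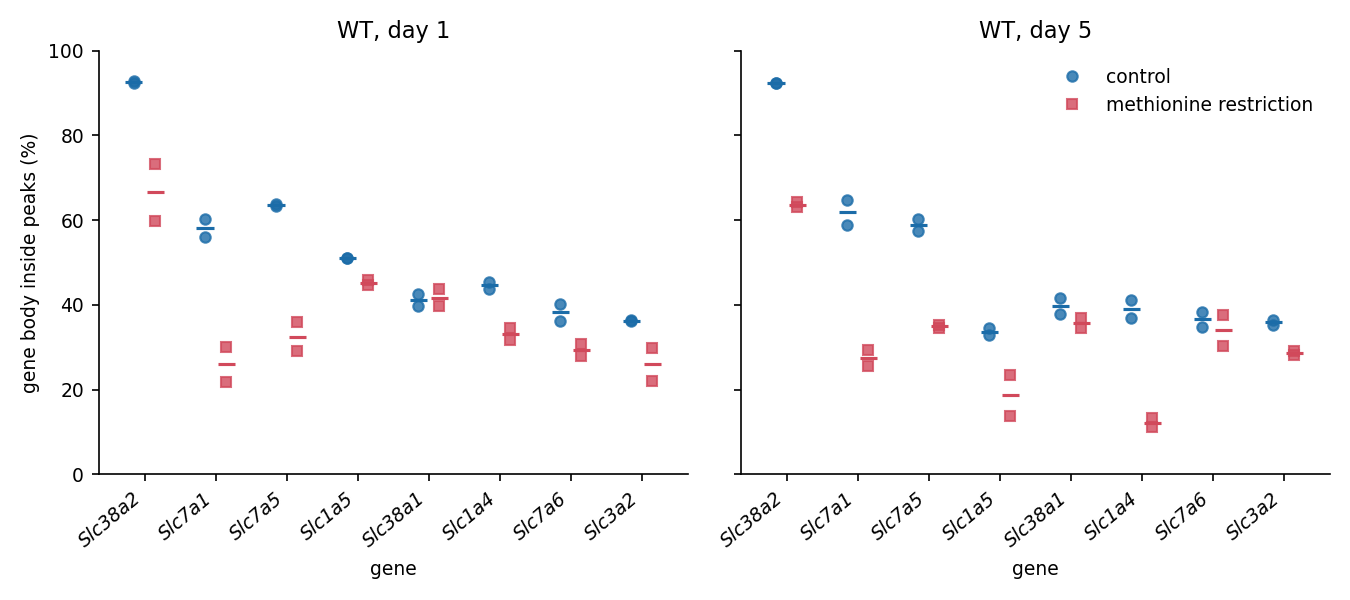
Cover (percent of the gene body inside peaks) in WT cells at day 1 and day 5, control medium (circles) against methionine restriction (squares), with 1 point per library and a bar at the mean of 2. The restricted Slc7a1 points sit at 21.8 to 30.2% and the control ones at 56.0 to 64.9%; for Slc38a1 at day 1 they overlap.

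The place of the cover along each body was not used to choose the genes. Over Slc38a2 a single peak ran from 0.855 to 0.939 kb after the start to past the end of the gene in 6 of 6 libraries of day 0 and control medium, overshooting the end by 0.176 to 1.04 kb. Under restriction the first covered base lay 1.60 to 3.83 kb after the start, and in 0 of 4 libraries did a peak reach the gene's end. Under restriction Slc38a2 was thus covered less at both ends, while its middle stayed largely inside peaks. At the end of Slc3a2, too, a peak went past the gene by 0.483 to 0.610 kb in 6 of 6 control libraries and in 0 of 4 restricted ones. Its first covered base lay 0.677 to 1.19 kb after the start in control libraries and 1.04 to 2.43 kb after it under restriction, so the media overlapped there.

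Slc1a4 was covered mostly in its later part. Its first covered base lay 2.67 to 8.94 kb from the start in control libraries and 14.5 to 17.9 kb from it under restriction, and peaks passed the gene's end by 0.274 to 0.708 kb in 6 of 6 control and 0 of 4 restricted libraries. Slc7a6 was covered in its last part and beyond, by 1.69 to 10.6 kb in control libraries, and Slc7a6os begins 1.72 kb away, so that cover beyond that point cannot be given to 1 gene. The peaks of Slc7a1 stopped inside the gene in all 10 libraries. Peak ends move with the threshold of the caller, and the shorter lists of the restricted libraries go with these shorter peaks. The part of list length in this was not tested. The share of all genes whose peaks pass their end was not computed, so these counts are not read as particular to these genes.

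**Figure D4:**
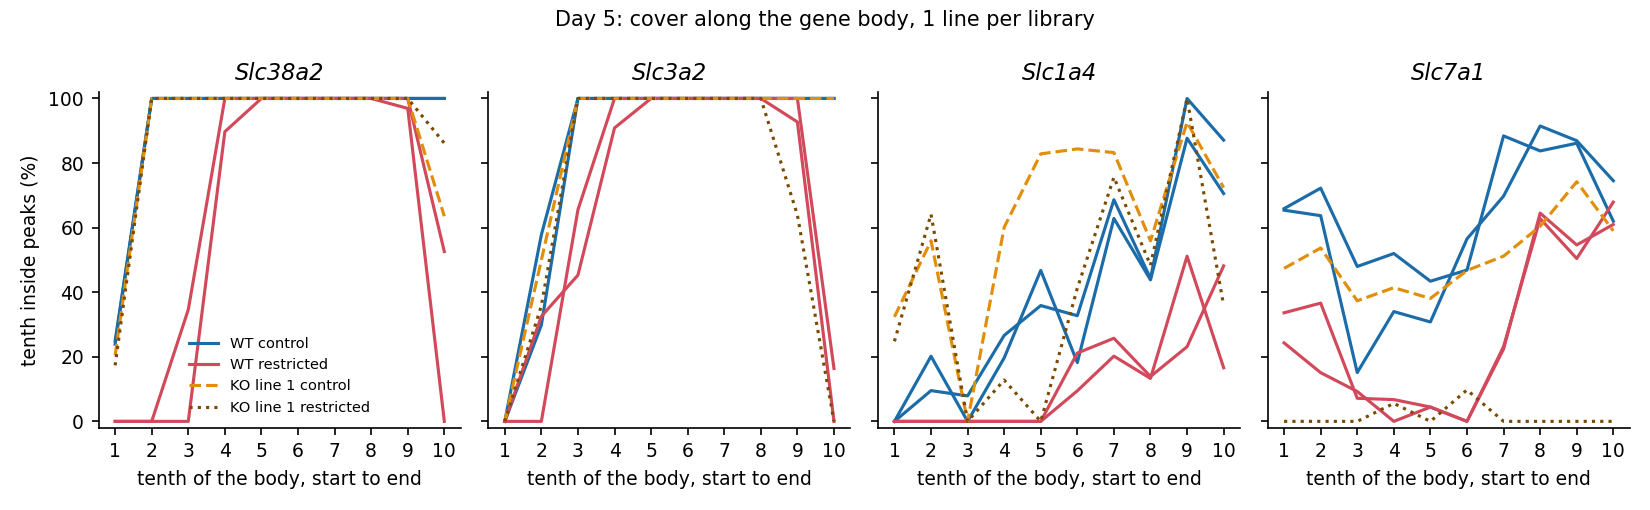
Cover along the gene body (percent of each of 10 equal bins inside peaks, from the start at 1 to the end at 10) of 4 transporters at day 5, with 1 line per library for WT control, WT restricted, KO line 1 control and KO line 1 restricted. The restricted WT lines of Slc38a2 start later and end earlier than the others, while the restricted KO line 1 follows the control libraries.

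The Setd2 KO lines were compared with WT over all conditions. Each line had 1 library per condition, so the 5 conditions stood in for replicates and the difference was averaged over them. The p-values therefore do not measure the spread between cultures or lines, and the model assumed the same difference in every condition. The fit over 8861 genes called 6 of the 8 members tested for less cover in KO line 1, beside 92.8% of all genes (93.3% in either direction), and 8 of 8 in KO line 2, beside 98.5%. Shares this close to the background, or below it, say little about the transporters. The direction is that of the raw lists: centring moves all differences up by 45 and 47.4 points, and after it 7 of the 8 members turn positive in KO line 1 and 5 in KO line 2. The median difference over all genes tested was -37.0 and -46.7 points, so a shift of this size turns most of them by construction. In KO line 2 the members were at 0 in all 5 libraries, apart from 1.70% of Slc7a5 and 1.05% of Slc7a6 at day 5 in control medium.

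In KO line 1 the members parted. Slc1a5 and Slc43a1 were at 0 in all 5 libraries and Slc7a6 in 4, with 1.31% at day 5 in control medium. Slc1a5 differed from WT by -45.1 points (SE 6.30, limma adjusted p = 3.76e-06), and Slc7a6 by -38.1 points (SE 3.61, limma adjusted p = 3.43e-08). Slc38a1 had 4.46%, 0%, 0.475%, 18% and 4.98% at day 0, day 1 control, day 1 restricted, day 5 control and day 5 restricted, and differed by -37.6 points (SE 3.63, limma adjusted p = 4.17e-08). Slc7a1 had 0.961%, 0%, 0%, 50.9% and 1.53% in the same order (-40.4 points, SE 8.13, limma adjusted p = 0.000183), and Slc7a5 had 1.59%, 0%, 0%, 56.6% and 15.3% (-35.4 points, SE 7.11, limma adjusted p = 0.000180). For these last 2 genes the day 5 control library alone came near WT.

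Slc38a2 was already known from these data for its cover in KO line 1, so its values are given as a description. Its cover in KO line 1 was 90.3% at day 0, 80.4% at day 1 in control medium, 16.1% at day 1 under restriction, 88.4% at day 5 in control medium and 90.3% at day 5 under restriction. Its day 0 and day 5 control values were within 5 points of the WT libraries. By its mean over the line's 5 libraries, 73.1%, Slc38a2 ranked 5 of 19304 genes, while Slc3a2, the next member, ranked 1132. Its strongest peak ranked 18 of 23529 by the authors' fold in that day 0 list and 11 of 52487 in the restricted day 5 list, but 571 of 791 in the restricted day 1 list. That short list sets the line's mean: the difference from WT was -8.57 points with it and 1.90 points with the restricted day 1 libraries left out.

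Slc3a2 kept 25.3%, 23.4%, 0%, 36.2% and 29.8% in KO line 1, and its difference of -10.4 points was called (SE 3.74, limma adjusted p = 0.0148) but not without the restricted day 1 library of the line (limma adjusted p = 0.104). Slc1a4 had 6.64%, 4.07%, 0%, 62.0% and 40.3%, so that its day 5 values lay above both WT libraries of the same day and medium, and its earlier values lay below those of theirs. Its difference of -13.3 points over all conditions was not called (SE 8.57, limma adjusted p = 0.144), and it was called without the line's day 5 control library (limma adjusted p = 0.0151) or its restricted day 5 library (limma adjusted p = 0.0210).

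At day 5 the median member of KO line 1 stood closer to WT than earlier, though Slc1a5 stayed at 0, Slc7a6 was at 0 or 1.31%, and Slc38a2 in control medium was no closer than at day 0. Over the 8 members, the median of KO line 1 cover as a percent of the WT mean was 5.17% at day 0, 0 at day 1 in either medium, 89.0% at day 5 in control medium and 28.8% at day 5 under restriction, beside 0, 0, 0, 19.6% and 1.24% over all genes. Of the 8 members tested, 1 had more cover than both WT libraries at day 5 in control medium (6.53% of the genes tested), namely Slc1a4 with 62.0% against 37.0% and 41.3%. Slc7a11, which was not tested, had its 1 peak there, at 0.215%. Under restriction 3 of the 8 were above both WT libraries (10.7% of the genes tested): Slc38a2 with 90.3% against 63.2% and 64.2%, Slc1a4 with 40.3% against 13.2% and 11.1%, and, barely, Slc3a2 with 29.8% against 29.0% and 28.1%. Slc38a2 was pointed out for its cover in this line, so its part in this count and in the medians above is not support. With 1 library per condition these day 5 values have no replicate check and no test.

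Restriction within KO line 1 at day 5 took Slc7a1 from 50.9% to 1.53%, Slc7a5 from 56.6% to 15.3%, Slc1a4 from 62.0% to 40.3%, Slc38a1 from 18% to 4.98% and Slc3a2 from 36.2% to 29.8%. Slc38a2 went from 88.4% to 90.3%, where WT cells went from 92.4% to 63.7% on average. The median difference over the 8618 genes with cover in either library was -6.68 points. The peak over Slc38a2 in the restricted day 5 library of KO line 1 ran from 1.02 to 12.2 kb of 12.3 kb, as in its control library, where it ran from 0.982 to 11.9 kb.

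**Figure D5:**
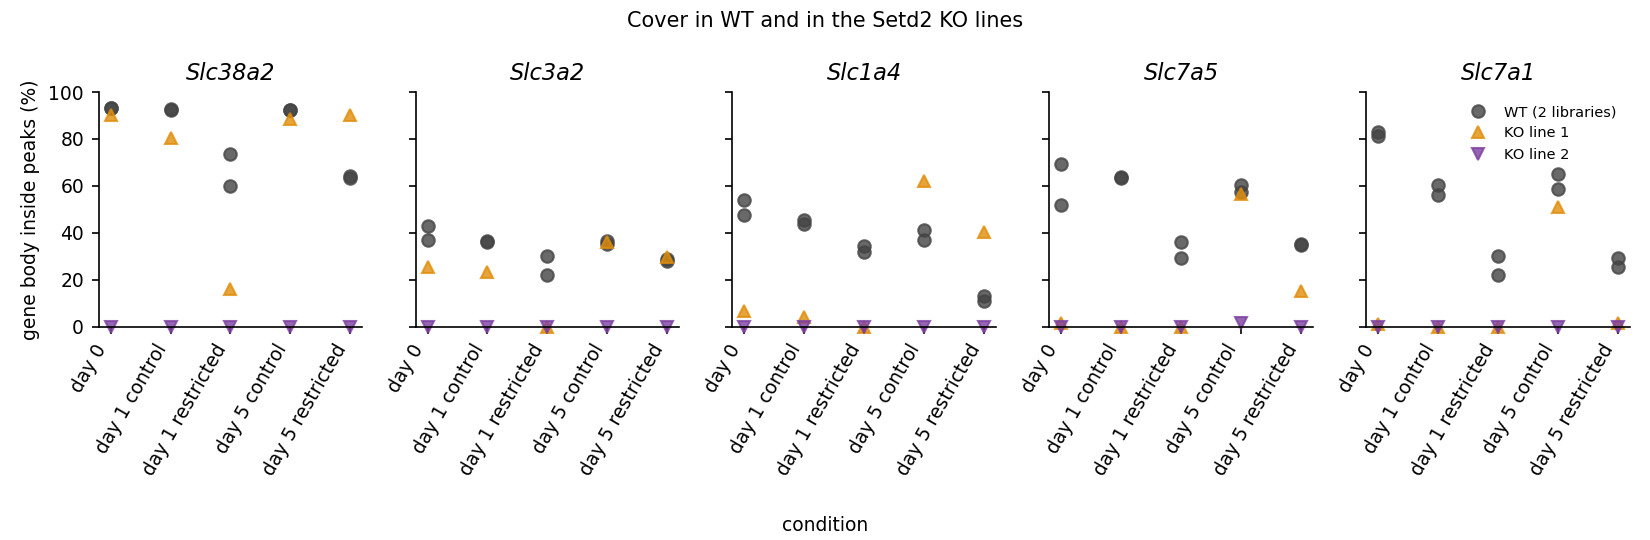
Cover (percent of the gene body inside peaks) of 5 transporters in the 5 conditions, in WT (circles, 2 libraries), KO line 1 (upward triangles) and KO line 2 (downward triangles), 1 point per library. Slc38a2 in KO line 1 is at 80.4 to 90.3% in 4 conditions and at 16.1% in restricted day 1, and Slc1a4 in KO line 1 lies above WT at day 5.

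The genes whose cover was most like a member's were found by the mean absolute difference over the 20 libraries, 10 of them from the KO lines. For Slc38a2 they were Eno1, a glycolytic enzyme (2.91 points), Sparc, a matrix protein (3.41 points), and Scd2, a fatty acid desaturase (3.67 points). For Slc1a4 they were Fhl2, Nmt1 and Rnf114 (4.84 to 5.03 points). No member was among the 3 nearest genes of another.

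Other amino acid transporters were read from a list of 44 genes. The WT fit and the fit over all lines each tested 14 of them, 12 in common and 16 in all. Slc38a9, a lysosomal carrier, entered the WT fit only through day 5 control, where its mean was 21.8% against 0.919% to 8.46% in the other WT groups. Slc3a1, which pairs with a cystine carrier, entered it only through restricted day 1, with 5.67% there and 4.46% to 5.38% in the other groups. Both are left out of the WT counts that follow. Under restriction at day 1, 3 of the other 12 fell and none rose by limma's test, beside 36.0% and 2.38% of all genes. They were Slc38a6 at -38.6 points, the taurine carrier Slc6a6 at -36.2 points and the lysosomal cystine carrier Ctns at -25.3 points. With lists of equal length these 3 were at -34.7, -36.5 and -10.0 points. At day 5, 5 fell and none rose, beside 41.5% and 4.32%, among them the glycine carrier Slc6a9 at -44.0 points (-9.36 points with lists of equal length). Of these 5, Ctns turned to 1.16 points after centring and Slc38a10 to 9.64 points with lists of equal length. The median of the 12 differences was -10.9 points under restriction at day 1, beside -7.99 points over all genes, and -8.38 points for day 5, beside -9.16 points. From day 0 to day 5 in control medium 3 rose and 1 fell, beside 12.2% and 15.6% of all genes: Slc6a9 rose by 32.6 points, the mitochondrial aspartate and glutamate carrier Slc25a12 by 19.4 and Ctns by 16, and Slc43a3 fell by 53.3. With lists of equal length Slc6a9 was at 9.80 points, Slc25a12 at 16.96, Ctns at 23.9 and Slc43a3 at -10.97. The 12 genes tested in both fits had less cover in KO line 1, beside 92.8% of all genes, and in KO line 2, beside 98.5%. The other pair, the glutamate carrier Slc1a3 and the cationic carrier Slc7a2, passed the filter only through KO line 1. Slc1a3 averaged 0 in WT and 19.9% in that line (0.876% to 33.7%), and Slc7a2 averaged 3.11% and 14.2% (0 to 36.0%). Centring turned 7 of the 12 falls in KO line 1 and 6 of the 12 in KO line 2, and by its size it turns most genes tested.

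Of 9 regulators of the amino acid and oxidative stress responses, 8 had a value and 7 were tested. Atf4, whose product drives many transporter genes, was listed at 0 in all libraries. Under restriction at day 1, 3 of the 7 fell by limma's test, beside 36.0% of all genes: Cebpg, a partner of ATF4 (-33.6 points), Trib3, which restrains ATF4 (-30.9 points, but 18.2 points with lists of equal length), and Ddit3, which encodes CHOP (-21.5 points). At day 5, 4 fell, beside 41.5%: Nfe2l2, which encodes the antioxidant factor NRF2 (-49.0 points, and -8.32 points with lists of equal length), Cebpg (-30.1 points), Ddit3 (-28.7 points) and Atf3 (-17.5 points, but 5.26 points with lists of equal length). Nfe2l2 was the 1 regulator of the 7 whose effect differed between days (-38.7 points, SE 6.91, limma adjusted p = 0.0155), beside 5.20% of all genes. No such value is given with lists of equal length, where its day 5 fall was small. In KO line 1, 4 of the 7 had less cover, beside 92.8% of all genes, and in KO line 2 all 7 did, beside 98.5%. Centring turned 2 of those 4 and 4 of those 7, and by its size it turns most genes tested.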

How the data were processed

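H3K36me3 was measured by ChIP-seq in 20 libraries of C2C12 cells, in single-end reads with a Drosophila spike-in, per the labels' protocols. The authors deposited 1 broad-peak list of 9 columns per library, called on each library separately. The score and the linear fold (ratio) enrichment of each peak are the authors' deposited values, as are −log10 p and −log10 q. Folds were used to rank peaks within a list and are printed only for the Slc38a2 peak in WT control libraries. Lists are on GRCm38, per the submitters' processing notes; caller, control and read filters are not given in the sources used here. Peak lists hold no counts, so depth is unknown and no counting interval is given. The peak names inside the lists call the KO libraries replicates 1 and 2 of a KO group, while the labels call them lines, and the labels were followed.

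Here peaks of a library were merged and the percent of each RefSeq gene body (GRCm38.p6, protein-coding, chromosomes 1 to 19 and X, Y, at least 2 kb, 19304 genes) inside them was computed with Python 3.11.15, numpy 2.4.6 and pandas 2.3.3. No spike-in scaling was applied. Genes whose cover averaged 5% or more over the libraries of a fit entered limma 3.58.1 (R 4.3.3), with trended and robust variance, all WT groups in 1 model for the WT comparisons, and all 20 libraries in 1 model with condition as covariate for each KO line against WT. The p-values were Benjamini-Hochberg adjusted over all genes in each comparison, with a threshold of 0.05; each limma adjusted p is from this fit unless an alternative is named. The code was tested on simulated data. Alternatives were peaks with −log10 q of at least 3, peaks joined over 1 kb, no filter on cover, lists of equal length, centring on the library median, bodies without other genes, only the groups compared, the replicate number as a block, and each library left out. Added after seeing the data were the body from the transcript start and KO fits without the restricted day 1 libraries. All 10 members are described, and genes like a member are the 3 nearest by cover, given for Slc38a2 and Slc1a4. The members and lists were chosen with earlier results of these data known. The input was not used here.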

Additional observations from a re-analysis of the deposited data

Results flagged for a closer look

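Slc38a2, the SNAT2 carrier, had less cover under restriction at day 5 in both WT libraries, and slightly more in the 1 library of KO line 1. In WT both restricted libraries (63.2% and 64.2% of the gene body inside peaks) were below both control libraries (92.5% and 92.4%). In KO line 1 the single restricted library (90.3%) was 1.95 points above the single control library (88.4%). The difference between WT and KO line 1 was not tested, since the line has 1 library per condition. At day 1 cover of Slc38a2 in the same line went from 80.4% in control medium to 16.1% under restriction, a change of -64.3 points. That restricted list held only 791 peaks over 0.307 Mb, and 0 of 19304 genes had at least 50% cover in it. The fall at day 1 was therefore set by the list and cannot be read as a response of this gene. KO line 2 had no peak over Slc38a2 in either medium.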

How the results depend on the processing

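A peak list gives neither depth nor height, so the results are limited by the choice of scale, by 2 WT libraries a group and by 1 library a KO condition. Over the 8 members tested, 405 of 488 differences under the alternatives that keep all libraries, or leave out only the restricted day 1 libraries, kept direction and side of the threshold, and so did 595 of 640 with 1 library left out; where that left 1 library in a group, it was assumed to vary like the others. The cause of the changes was not tested. The count of members called for restriction at day 5, 5 (45.8% of all genes called), was 3 with −log10 q of at least 3 (35.4%), 1 with lists of equal length (35.6%) and 3 to 5 with a library left out (28.9% to 49.2%). From day 0 to day 1 the count, 3 (6.63%), was 1 with centring (3.52%), 1 with joined peaks (5.38%), 0 with lists of equal length (2.35%), 0 with only the groups compared and 0 to 3 with a library left out (1.49% to 10.4%). With only the groups compared limma called 0 of all genes, and 3 of the 8 members, beside 19.98% of all genes, had an unadjusted p under 0.05. From day 0 to day 5 the count, 3 (27.8%), was 5 with −log10 q of at least 3 (24.7%) and 1 to 4 with a library left out (18.6% to 27.8%). In KO line 2, where all 8 had less cover (98.5%), centring gave 3 calls (71.9%), 1 for less cover (Slc38a2, -34.3 points) and 2 for more (Slc3a2 and Slc7a6). The mean number of the 10 members marked per library was 3 in WT (21.5% of all genes) and 1.4 in KO line 1 (2.72%). It was 7.4 (34.4%) and 2.2 (5.97%) at a cover of at least 25%, 1 (8.26%) and 0.8 (0.891%) at 75%, and 2 (16.3%) and 0.8 (1.75%) with −log10 q of at least 3. The KO line 1 means include Slc38a2, which was pointed out for its cover in that line.

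These differences turned. With −log10 q of at least 3 they were 14.7 for Slc7a6 and 0.33 for Slc38a1 under restriction at day 5, 12.3 for Slc7a1 in the interaction and -1.91 for Slc7a5 from day 0 to day 1. With centring they were 9.33, 6.38, 3.70 and 4.86 for Slc1a5, Slc7a6, Slc1a4 and Slc3a2 under restriction at day 1, and 1.60, 14.06, 12.6 and 9.35 for Slc1a5, Slc7a6, Slc38a1 and Slc3a2 at day 5. Centring also gave 2.37, 8.09 and 4.86 for Slc1a4, Slc38a2 and Slc3a2 from day 0 to day 1, and 0.68 and 1.78 for Slc7a5 and Slc38a2 to day 5. In KO line 1 it gave 4.65, 6.93, 9.65, 31.7, 7.43, 36.5 and 34.6 for Slc7a1, Slc7a6, Slc7a5, Slc1a4, Slc38a1, Slc38a2 and Slc3a2, and in KO line 2 2.21, 9.19, 11.4, 4.16 and 14.03 for Slc1a5, Slc7a6, Slc1a4, Slc38a1 and Slc3a2. With lists of equal length they were 7.46 for Slc7a6 at day 1, 13.4, 2.48 and 7.82 for Slc7a6, Slc1a4 and Slc38a1 at day 5, 9.22 and 4.54 for Slc7a1 and Slc1a4 in the interaction and -4.44 for Slc7a5 from day 0 to day 1. With joined peaks they were -2.97 for Slc38a1 at day 1, 4.01 for Slc7a6 at day 5 and 2.96 for Slc7a1 in the interaction. Without the restricted day 1 libraries Slc38a2 in KO line 1 was at 1.90. With 1 library left out, the differences that turned ranged from -15.9 to 3.16 for Slc38a2 in KO line 1, from -5.65 to 11.7 for Slc7a5 from day 0 to day 1 and from -10.4 to 6.96 to day 5, from -1.51 to 2.70 for Slc38a1 under restriction at day 1, from -6.35 to 1.12 for Slc7a6 at day 5, and in the interaction from -6.48 to 1.88 for Slc7a1, from -9.46 to 4.15 for Slc38a2 and from -0.93 to 6.92 for Slc3a2.

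With the replicate number as a block, 3, 5, 0, 2 and 3 members were called for restriction at day 1 and day 5, the interaction, and day 0 to day 1 and to day 5, beside 36.1%, 43.9%, 4.19%, 4.90% and 25.8% of all genes. The block ended the calls of Slc1a4 at day 1 (-11.5 points, limma adjusted p = 0.0548) and of Slc38a1 from day 0 to day 1 (-16.6 points, limma adjusted p = 0.0620) and changed no other call. Same-numbered libraries did not deviate together (r = -0.44 to 0.061 over genes in 10 pairs of groups, none over 0.1), so the number is not a pairing. The KO fit matches libraries by day and medium. By replicate number, the KO lines share only the number 1 with WT, so no such block was fitted there.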
